A study of Mus musculus with 16 samples.

Results

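The genes described here are 8 markers of V(D)J recombination and of the immature B-cell, Rag1, Rag2, Vpreb1, Vpreb3, Igll1, Cd93, Cd24a and Sox4, chosen by symbol from the 38355 genes of the deposited table. Each symbol matched 1 gene. They were followed by RNA-Seq through 4 splenic B-cell subsets of C57BL/6 mice, transitional 1 (T1), transitional 2 (T2), marginal zone (MZ) and follicular (FO), in wild-type (WT) mice and in Mir146a-/- knockout (KO) mice, which lack the microRNA gene in every cell. There were 8 groups of 2 libraries, 16 in all, and no group received a treatment. Cells were sorted from spleens pooled from several mice, so the spread between replicates is not that between single mice. The paper calls the replicates biological, but whether they came from separate pools is not stated. The age of these mice is not given in the sources used here. T1 cells were gated as CD23- AA4+ IgM-high CD21-/low, T2 as CD23+ AA4+ IgM-high CD21-low, MZ as CD23- AA4- IgM-high CD21-high, and FO as CD23+ AA4- IgM-low CD21-int. AA4 is the protein that Cd93 encodes, so the fall of Cd93 from the T1 and T2 subsets to MZ and FO was set by the gates and is given as a check of the sort, not as a finding.

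RAG1 and RAG2 form the recombinase that cuts immunoglobulin gene segments at their recombination signal sequences. It acts in pro-B and pre-B cells of the bone marrow and again in immature B-cells that edit a self-reactive light chain, after which both genes are shut off. VpreB1 and lambda5, encoded by Vpreb1 and Igll1, form the surrogate light chain of the pre-B-cell receptor and are made before a light chain exists. Newly formed B-cells reach the spleen as T1 cells, pass through T2 and become FO or MZ B-cells.

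The libraries held 9003343 to 26386684 reads assigned to genes, recovered from the whole-read steps of the values. Mir146, the deleted gene (GRCm38, chromosome 11, 43374397 to 43374461, minus strand), had 1 read in each WT FO library and 0 in the other 14, so it cannot check the genotype labels. The B cell markers Cd79a, at 771 to 1640.2 RPKM, and Ms4a1 (CD20), at 581 to 2464 RPKM, a read count scaled to exon length and to library size, were expressed in every library. The T1 libraries stood apart by immunoglobulin and plasma cell RNA. Igkc, the kappa constant gene, was at 13442 to 47436 RPKM in T1 and 4130.1 to 8324 elsewhere, and Ighm, the mu constant gene, at 11196 to 35988 and 3556 to 5139. Summed RPKM of 5 plasma cell markers was 479 and 2949 in WT T1 replicates 1 and 2, 1227 and 4057 in KO T1 replicates 1 and 2, and 33.9 to 74.2 in the 12 other libraries. Igj, the joining chain gene, made up most of it, at 428 to 3876 RPKM in T1. Myeloid markers (12 genes) summed to 80.5 to 141.6 RPKM in T2, 14.6 to 107.9 in T1, 23.2 to 66.5 in MZ and 9.82 to 40.2 in FO. In bulk samples, fewer cells that express a gene and less RNA per cell cannot be told apart.

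**Figure D1:**
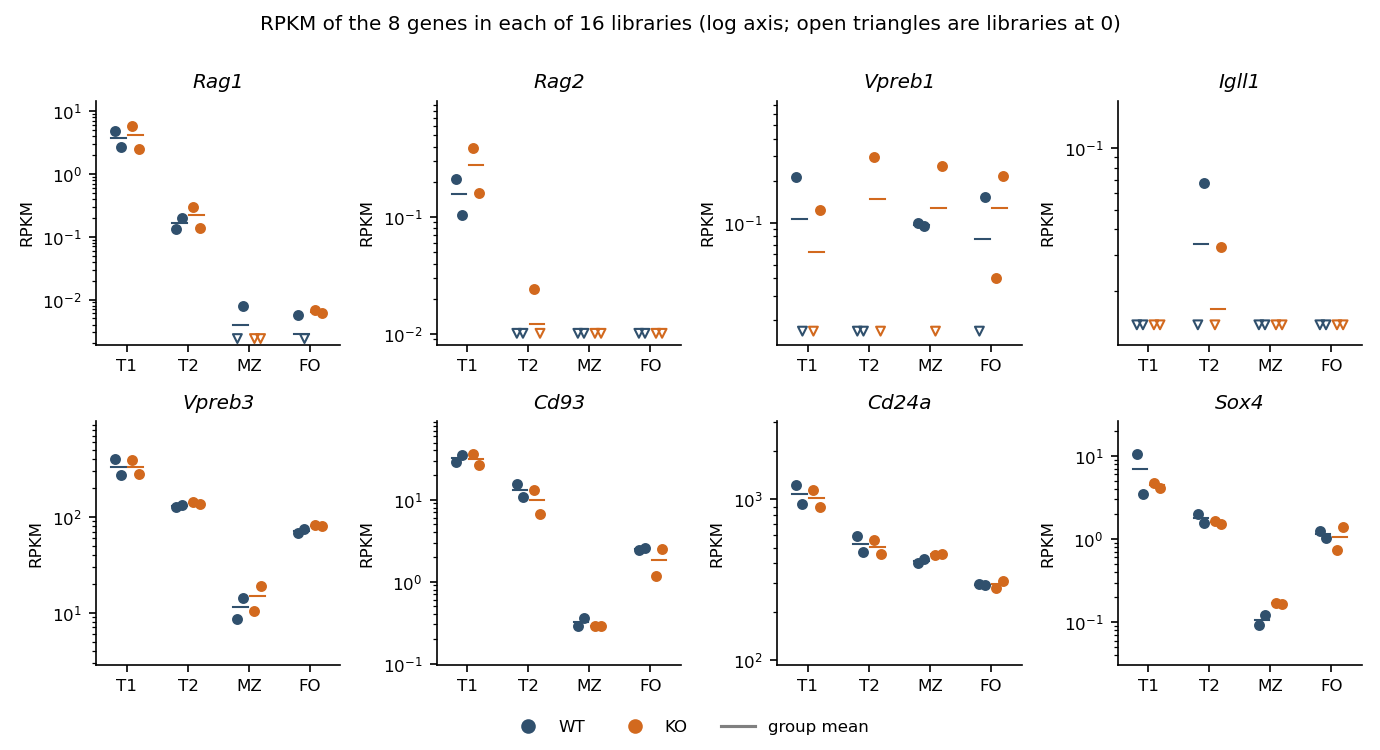
RPKM (log axis) of the 8 genes in T1, T2, MZ and FO, with WT in blue and KO in orange. Each point is a library, the short lines are group means of 2 libraries and open triangles mark libraries at 0. Rag1 ran from 2.53 to 5.80 in T1 down to at most 0.00800 in MZ and FO, Vpreb3 and Sox4 were lowest in MZ, and Cd24a was lowest in FO.

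Rag1 (ENSMUSG00000061311, GRCm38 chromosome 2, 101638282 to 101649501, minus strand) was expressed in T1 and fell to near 0 after it. Its RPKM was 4.74 and 2.69 in the WT T1 replicates and 5.80 and 2.53 in the KO T1 replicates. In T2 it was 0.134 and 0.200 in WT, and 0.302 and 0.140 in KO. Every T1 library lay above every T2 library. In MZ, 1 read was found in 1 of 4 libraries, and in FO 1 read was found in each of 3 libraries. Of the 1376 Rag1 reads in all 16 libraries, 1309 (95.1%) were in T1, 63 in T2, 3 in FO and 1 in MZ.

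The mean Rag1 RPKM over both genotypes was 3.94 ± 1.60 in T1 (SD, n = 4) and 0.194 ± 0.0780 in T2 (SD, n = 4), so that T2 held 4.93% of the T1 level. The pooled reads gave a ratio of T1 over T2 of 19.4, with a 95% exact interval of 15.1 to 25.4. All intervals on reads cover counting error only. They leave out the spread between libraries, since reads were pooled over them, and reads are not independent molecules. On the log2(RPKM + 0.5) scale the change from T1 to T2 was -2.61 (SE 0.24, adjusted p = 5.04e-05, limma). That scale understates the change of a gene at this level, and limma-voom on the recovered reads gave -4.25 (SE 0.55). Rag1 entered both fits only through its level in T1, so its p-value for this step is a description.

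The fall of Rag1 went on past T2. Reads in T2 exceeded those in MZ by a ratio of 88.1 (95% interval 15.2 to 3534) and those in FO by 41.8 (13.7 to 208), and the T2 libraries did not overlap with either. The limma changes of -0.46 from T2 to MZ (SE 0.24, adjusted p = 0.15) and -0.45 from T2 to FO (SE 0.24, adjusted p = 0.23) did not pass. They could not be called whatever their p, because the mean RPKM was under 1 in all 3 subsets. With limma-voom they were -5.01 (SE 1.24, adjusted p = 0.00636) and -4.73 (SE 1.14, adjusted p = 0.0267). Between FO and MZ, 3 reads against 1, no difference was detectable at this depth.

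Rag2 (ENSMUSG00000032864, chromosome 2, 101624718 to 101632529, plus strand), the partner subunit, lies next to Rag1 and had far fewer reads. It was at 0.210 and 0.105 RPKM in the WT T1 replicates, from 9 and 5 reads, and at 0.392 and 0.162 RPKM in the KO T1 replicates, from 15 and 8 reads. Outside T1 the only Rag2 read was in KO T2 replicate 1. All 4 T1 libraries lay above all 4 T2 libraries, with means of 0.217 ± 0.124 and 0.00608 ± 0.0122 RPKM (SD, n = 4). The difference had p = 0.0286 in a two-sided exact permutation test of 4 libraries against 4, the smallest p that this design allows. It was 1 of 15 such tests on the genes under the limma filter, and these p-values were not adjusted.

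With 37 Rag2 reads in T1 and 1 in T2, the ratio was 34.6 (95% interval 5.84 to 1403). No Rag2 read was found in 68091399 reads of MZ or in 96973178 reads of FO. Against a floor of 3 reads over the subset, the ratio of Rag2 in T1 was 16.1 over MZ and 23.0 over FO. The exact 95% lower bounds, which also count the error of the T1 reads, were 12.5 and 17.8. Per length, Rag1 was 14.8 to 25.6 times Rag2 in the 4 T1 libraries, and 12.4 times in the T2 library that held a Rag2 read. The exons of Rag2 share 208 of 3424 bases, and those of Rag1 80 of 6608, with B230118H07Rik, a gene at 0.0755 mean RPKM in T1 and 0.0958 in T2, and reads of the shared bases cannot be assigned to either gene. Both recombination genes had their reads almost entirely in T1, and Rag1 was the more abundant transcript there.

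The surrogate light chain genes were not expressed at a level that these libraries could resolve. Igll1 (ENSMUSG00000075370, chromosome 16, 16860671 to 16863985, minus strand) had 2 reads in WT T2 replicate 2, 1 read in KO T2 replicate 2 and 0 in the other 14 libraries. At 0 of 52066280 reads in T1, a level of up to 0.0576 RPM (a read count scaled to library size but not to length) is allowed, from the 3 reads that a count of 0 permits. The exact permutation test gave p = 0.429 for T1 against T2, for T2 against MZ and for T2 against FO.

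Vpreb1 (ENSMUSG00000059305, chromosome 16, 16868403 to 16870843, minus strand) had 29 reads, spread over 9 libraries of every subset. There were 5 reads in T1, 4 in T2, 11 in FO and 9 in MZ. In RPM these are 0.0960, 0.0821, 0.113 and 0.132, and each lies within the 95% interval of the others. The exact permutation test gave p = 1 for T1 against T2, 0.657 for T2 against MZ and 0.829 for T2 against FO. Vpreb1 shares 108 of its 1199 annotated exonic bases with Top3b, a topoisomerase gene on the opposite strand that was at 13.4 to 15.8 mean RPKM in the 4 subsets. The exon length recovered from the deposited Vpreb1 values was 1113 bases, so how many of the shared bases were counted is not known. The library kit does not keep strand, so reads of the shared bases cannot be assigned to either gene.

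Vpreb3 was the exception in its family. It encodes a protein related to VpreB1 that binds immunoglobulin chains in the endoplasmic reticulum and is made well past the pre-B stage. Vpreb3 (ENSMUSG00000000903, chromosome 10, 75943057 to 75949657, plus strand) was at 395 and 271 RPKM in WT T1 and at 389 and 276 in KO T1. It was at 126 and 131 RPKM in WT T2 and at 143 and 135 in KO T2. FO held 66.9 and 75.2 RPKM in WT and 81.6 and 79.1 in KO, and MZ held 8.56 and 14.3 in WT and 10.3 and 19.1 in KO. The 4 subsets did not overlap, in the order T1, T2, FO, MZ.

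From T1 to T2, Vpreb3 fell by 1.29 on the log2 scale (SE 0.21, adjusted p = 0.00141, limma), with T2 at 40.2% of the T1 mean. The step from T2 to MZ was much larger, a fall by 3.37 (SE 0.21, adjusted p = 7.58e-07, limma), and left MZ at 9.79% of T2. The change from T2 to FO was -0.82 (SE 0.21, adjusted p = 0.0402, limma), short of the log2 fold threshold of 1. MZ was lower than FO by 5.78-fold in mean RPKM, a log2 change of -2.55 (SE 0.21, adjusted p = 5.33e-06, limma).

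Cd93 (ENSMUSG00000027435, chromosome 2, 148436640 to 148443563, minus strand) encodes the C-type lectin-like receptor that the AA4 antibody binds. Its RPKM was 29.3 and 35.4 in WT T1, 36.4 and 26.6 in KO T1, 15.4 and 10.9 in WT T2, and 13.3 and 6.66 in KO T2. In the AA4- gates it was 2.42 and 2.55 in WT FO, 1.17 and 2.48 in KO FO, and 0.288 to 0.356 in the 4 MZ libraries. All AA4+ libraries lay above all AA4- libraries, as the gates set. T1 and T2 were both gated AA4+, and Cd93 fell between them by 1.48 (SE 0.23, adjusted p = 0.00106, limma). FO and MZ were both gated AA4-, and MZ lay lower by a ratio of 7.05 in mean RPKM (log2 change -1.68, SE 0.23, adjusted p = 2.11e-04, limma).

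Cd24a (ENSMUSG00000047139, chromosome 10, 43578284 to 43584265, plus strand) encodes heat-stable antigen, a glycolipid-anchored surface protein that is highest on immature B-cells. It was the most abundant of the 8 per length in every library. Its RPKM was 1220.2 and 933 in WT T1, 1139 and 892 in KO T1, 588 and 470.1 in WT T2, and 558 and 456 in KO T2. MZ held 399 and 426 in WT and 451 and 458 in KO. FO held 295 and 291 in WT and 279.8 and 311 in KO. T1 lay above T2 and FO lay below every other subset, while T2 and MZ overlapped.

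Cd24a fell by 1.01 from T1 to T2 (SE 0.13, adjusted p = 3.08e-04, limma), just past the fold threshold. This was the only member whose call in this comparison was lost in any alternative, at -0.91 without WT T1 replicate 1, -0.92 without KO T1 replicate 1, -0.93 without WT T2 replicate 2, -0.94 without KO T2 replicate 2 and -0.70 with quantile normalization. From T2 to MZ it changed by -0.25 (SE 0.13, adjusted p = 0.139, limma). The change from T2 to FO was -0.81 (SE 0.13, adjusted p = 0.0131, limma), under the fold threshold. Unlike Vpreb3 and Sox4, Cd24a was higher in MZ than in FO, at 434 ± 26.6 against 294 ± 12.9 mean RPKM (SD, n = 4), a log2 difference of 0.56 (SE 0.13, adjusted p = 0.00571, limma) that did not reach the fold threshold.

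Sox4 (ENSMUSG00000076431, chromosome 13, 28948919 to 28953713, minus strand) encodes an HMG-box transcription factor that early B-cell progenitors need. It was at 10.4 and 3.46 RPKM in WT T1 and at 4.72 and 4.13 in KO T1, so that WT T1 replicate 1 stood well above the other 3. It was at 1.99 and 1.55 in WT T2 and at 1.65 and 1.51 in KO T2. FO held 1.26 and 1.01 in WT and 0.728 and 1.38 in KO, and MZ held only 0.0922 to 0.170. The subsets did not overlap, in the order T1, T2, FO, MZ. Gm26735, a noncoding gene that overlaps Sox4 on the other strand, was at 0 mean RPKM in all 4.

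Sox4 fell by 1.39 from T1 to T2 (SE 0.27, adjusted p = 0.00348, limma) and by 1.77 from T2 to MZ (SE 0.27, adjusted p = 3.59e-04, limma). The pooled reads gave T2 over MZ a ratio of 12.2 (95% interval 8.92 to 17.1). The change from T2 to FO, -0.46 (SE 0.27, adjusted p = 0.262, limma), did not pass. MZ was below FO by 1.31 on the log2 scale (SE 0.27, adjusted p = 0.00292, limma), a call lost with a pseudocount of 1, at -0.87.

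Across all genes, the limma test covered 12507 genes whose RPKM averaged above 1 in some group, and 5 of the 8 members were among them. Rag1 passed that filter only through T1, while Rag2, Vpreb1 and Igll1 did not pass. Calls needed 3 things, a Benjamini-Hochberg adjusted p under 0.05, a change of more than 1 on the log2 scale, and an RPKM averaging above 1 in either of the groups set against each other. From T1 to T2, the mean of the WT and KO changes was called lower for Vpreb3, Cd93, Cd24a and Sox4, where 3.16% of all tested genes were called lower in T2. Rag1 was called too, but it had entered the test through T1, so its call is a description. From T2 to MZ, Vpreb3 and Sox4 were called lower, where 4.25% of all genes were. Cd93 was called lower from T2 to MZ and from T2 to FO, steps that cross the AA4 gate. No other member was called from T2 to FO, where 0.736% of all genes were called lower. From FO to MZ, both gated AA4-, the calls were Cd93, Vpreb3 and Sox4, where 3.41% of all genes were called lower. No member was called higher in these 4 comparisons, where 2.27%, 6.58%, 0.408% and 5.79% of all genes were.

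**Figure D2:**
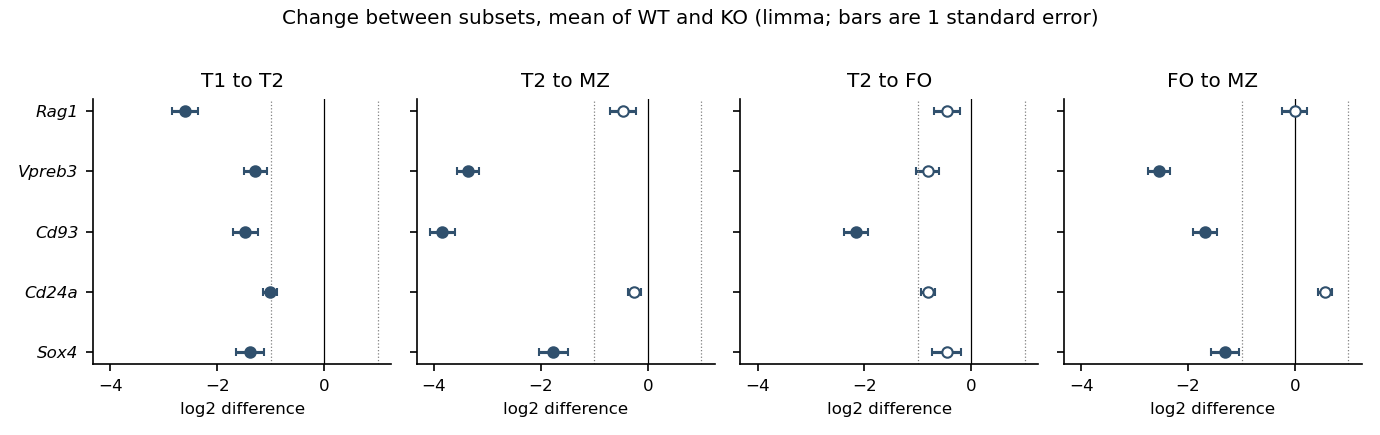
Change in log2(RPKM + 0.5) between subsets for the 5 tested genes, as the mean of the WT and the KO change, with bars of 1 standard error. Filled points were called, open points were not, and dotted lines mark a log2 change of 1 in size. All 5 points are filled from T1 to T2, with Rag1 lowest at -2.61, and Cd24a lies to the right of 0, at 0.56, from FO to MZ only.

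The changes from T1 to T2 were also computed without T1 replicate 2 of each genotype, the libraries richest in plasma cell RNA. The T1 libraries kept still held 479 (WT) and 1227 (KO) summed RPKM of the plasma cell markers. The libraries outside T1 held 33.9 to 74.2, so the part of plasma cell RNA in the fall was not tested. In both genotypes T1 replicate 1 held more Rag1 than replicate 2, by ratios of 1.76 in WT and 2.30 in KO, and also more Rag2, Vpreb3, Cd24a and Sox4. Cd93 was higher in replicate 1 by 1.37 in KO and lower, at a ratio of 0.828, in WT. With both T1 replicate 2 libraries left out, the 5 changes from T1 to T2 were -3.06 for Rag1, -1.55 for Vpreb3, -1.52 for Cd93, -1.19 for Cd24a and -1.80 for Sox4, and all 5 were called. Within WT alone Cd93 was then not called (-1.15, SE 0.42, adjusted p = 0.112, limma), and within KO alone Cd24a and Sox4 were called in addition.

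Within WT alone, Vpreb3, Cd93, Cd24a and Sox4 were called lower from T1 to T2, where 2.17% of all genes were. Within KO alone Vpreb3 and Cd93 were, against 2.60% of all genes. Rag1 was called in each genotype too, but it had entered the test through T1, so these calls are a description. Counts of members called from T1 to T2 given below include Rag1 where it passed. In KO, Cd24a changed by -0.998 (SE 0.18, adjusted p = 0.00611, limma), just short of the fold threshold, and Sox4 by -1.24 (SE 0.38, adjusted p = 0.0587, limma), which was called with a replicate block within each genotype (SE 0.34, adjusted p = 0.0386). From T2 to MZ, Vpreb3 and Sox4 were called lower in each genotype, against 4.13% of genes in WT and 3.52% in KO. Cd93 was called there too in each genotype, across its own AA4 gate. From T2 to FO, Cd93 was called in WT (-2.17, SE 0.33, adjusted p = 0.0384, limma), where 0.152% of genes were called lower. In KO its change was almost equal (-2.15, SE 0.33, adjusted p = 0.118, limma), in a comparison where limma called no gene lower (0%). There, Cd93, Vpreb3 and Cd24a had an unadjusted p under 0.05 with limma, as did 1498 of the 12507 tested genes. The change of Cd93 crosses its own gate. No member was called there with limma-voom.

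The calls within 1 genotype depended on single libraries. From T1 to T2 in WT, 3 members were called when WT T2 replicate 1 was left out and 1 when WT T2 replicate 2 or WT T1 replicate 1 was. Cd93 was lost without WT T1 replicate 2 also. In KO, 1 was called without KO T1 replicate 1 or without KO T2 replicate 2, while Vpreb3 was lost without KO T2 replicate 1. Cd24a was gained in KO without KO T1 replicate 2 or KO T2 replicate 1, and Sox4 without either WT T1 library. The KO call of Sox4 from T2 to MZ was lost without KO T2 replicate 1 or KO MZ replicate 1. From T2 to FO in WT, Cd93 was not called without WT T2 replicate 1, either WT FO library or any 1 of the MZ libraries, and in KO it was called without KO T2 replicate 2. No difference between the genotypes in these changes passed the test. The 15 differences, KO minus WT, lay between -0.39 and 0.38 on the log2 scale, none had an unadjusted p under 0.05 with limma or limma-voom, and 0%, 0.008% and 0.008% of all genes passed for the steps to T2, to MZ and to FO.

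The comparison of KO with WT asked whether loss of miR-146a moved any of these genes. None was called in any subset with limma, where 0.04% of all genes were called for T1, 0.048% for T2, 0.064% for MZ and 0.032% for FO, nor over all 4 subsets (0.072%). In the 20 tests within a subset the differences ran from -0.44 for Cd93 in T2 (SE 0.33) to 0.33 for Vpreb3 in MZ (SE 0.30), and the smallest unadjusted p was 0.207. Over all subsets Cd93 had the lowest value, -0.24 (SE 0.16, adjusted p = 0.725, limma), and Vpreb3 the highest, 0.16 (SE 0.15, adjusted p = 0.829, limma). With both limma and limma-voom, 0 members had an unadjusted p under 0.05. Of the 12507 tested genes, limma gave such a p to 439 in T1, 421 in T2, 206 in MZ, 115 in FO and 998 over all subsets. With 2 libraries a group, differences of the size of these standard errors were not detectable.

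For the recombination genes the read counts of KO and WT can be set side by side. The intervals leave out the spread between replicates, which for Rag1 RPKM in T1 was 1.76-fold in WT and 2.30-fold in KO. In T1, Rag1 had 640 reads in WT and 669 in KO, a ratio of KO over WT of 1.08 per total reads (95% interval 0.967 to 1.21). In T2 it had 26 and 37 reads, a ratio of 1.24 (0.728 to 2.12). Rag2 in T1 had 14 reads in WT and 23 in KO, a ratio of 1.70 (0.837 to 3.57). Over all subsets, the exact permutation test of 8 libraries against 8 gave p = 0.662 for Rag2, 0.379 for Vpreb1 and 1 for Igll1.

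**Figure D3:**
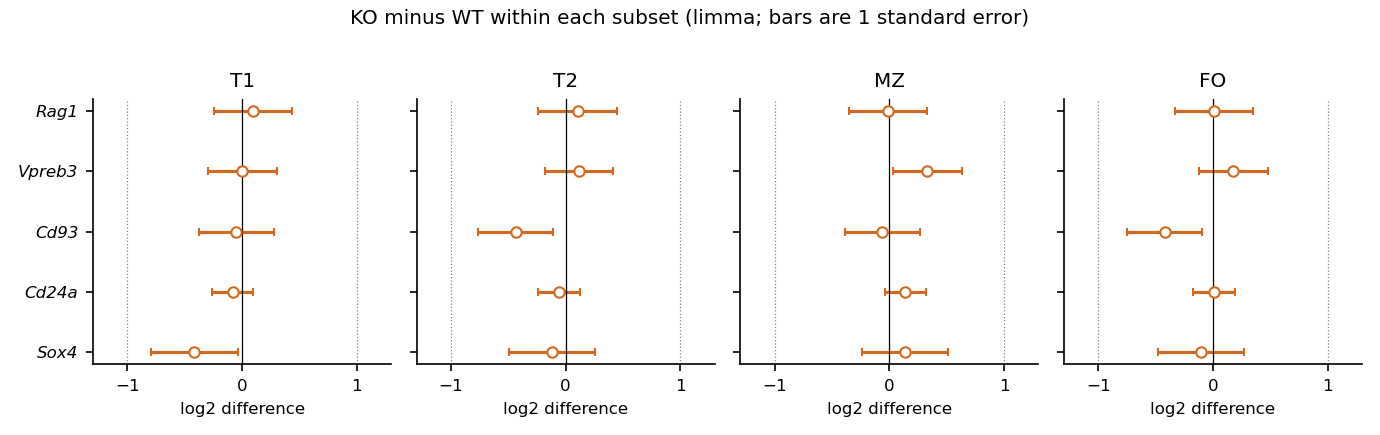
Difference in log2(RPKM + 0.5), KO minus WT, within T1, T2, MZ and FO for the 5 tested genes, with bars of 1 standard error. Open points were not called and dotted lines mark a difference of 1 in size. All 20 points are open and lie between -0.44 and 0.33.

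A microRNA acts by pairing its seed, bases 2 to 8, with messenger RNA, usually in the 3′ UTR. Counted as sites were matches to bases 2 to 8, and matches to bases 2 to 7 followed by an A. The sequences are shown because the knockout removes this microRNA. The mature RNA lies on GRCm38.p6 chromosome 11, 43374435 to 43374456, minus strand, and is given from RefSeq with the seed in capitals.
mmu-miR-146a-5p: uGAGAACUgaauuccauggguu
Among the 8 members, the longest annotated 3′ UTR (GENCODE M21, 144 to 4603 bases) held such a site only in Cd93, which held 3 in its 4603 bases. The first pairs with bases 2 to 8, the second and the third with bases 2 to 7 followed by an A. Any such site was found in the UTRs of 20.3% of 10261 tested genes. The Cd93 matches are given with their surroundings from the RNA's own strand, with matched bases in capitals. The first lies at chromosome 2, 148440082 to 148440088, the second at 148439726 to 148439732 and the third at 148437137 to 148437143.
Cd93 match 1: gtcatgaagaaAGTTCTCtctctctcttt
Cd93 match 2: tcagagtctttGTTCTCAgactagagaac
Cd93 match 3: cattttgacctGTTCTCAacagtacccat
Cd93 was not higher in KO in these libraries. Its differences were -0.05 in T1, -0.44 in T2, -0.42 in FO and -0.06 in MZ (SE 0.33 each), and none passed the test.

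Promoters of the members were searched because 5 of them fell together from T1 to T2. RefSeq promoters (GRCm38.p6, 250 bases before to 50 after the start) were at hand for Rag1, Rag2, Vpreb1, Vpreb3, Igll1 and Sox4. The hexamer CAGGTG, the E-box bound by E2A proteins, was found on either strand in 3 of the 6 and in 20.2% of 32851 promoters. Of the 5 that fell, Rag1, Vpreb3 and Sox4 had a promoter at hand, and only that of Rag1 held the hexamer. The matches, in capitals, are given on the strand of each gene. They lie in chromosome 2, 101649652 to 101649677 for Rag1, chromosome 16, 16869328 to 16869353 for Vpreb1, and chromosome 16, 16863978 to 16864003 for Igll1, where the hexamer is on the other strand.
Rag1: cctgaagagcCAGGTGccagctggag
Vpreb1: gacgttccagCAGGTGcttcctccca
Igll1: tacacagatcCACCTGcactggaata
The Ikaros core TGGGAA was found in Rag1 and Sox4 and in 25.6% of all promoters. The forkhead heptamer GTAAACA (3.65% of all promoters) was in none of the 6 windows. Both strands were searched for each. No match overlapped another. Rag1, expressed in T1, and Vpreb1 and Igll1, which had almost no reads, held the same hexamer, while Rag2 and Vpreb3 held none of the 3 motifs.

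The list of recombination partners and end-joining genes had 16 genes, of which 15 were tested. From T1 to T2, 1 was called lower, beside 3.16% of all genes, and 1 higher, beside 2.27%, and the median change was 0.25, beside 0.08 for all tested genes. Polm, a DNA polymerase of end joining, was at 79.6 ± 15.9 RPKM in T1 and 35.6 ± 5.23 in T2 (SD, n = 4), a change of -1.14 (SE 0.15, adjusted p = 4.01e-04, limma). Nbn, a subunit of the complex that senses DNA breaks, was at 2.43 ± 0.823 in T1 and 6.64 ± 0.797 in T2 (SD, n = 4) and rose by 1.32 (SE 0.16, adjusted p = 2.66e-04, limma). From T2 to MZ only Polm was called, lower by 1.08 (SE 0.15, adjusted p = 2.00e-04, limma), with a list median of -0.04 beside 0.02 for all genes. From T2 to FO none was called. Polm was the furthest from 0 there, at -0.59 (SE 0.15, adjusted p = 0.0385, limma), under the fold threshold. Dntt, the terminal transferase of progenitors, was under the filter, at 0.0134 to 0.0939 mean RPKM in the 4 subsets.

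Of 15 listed transcription factors known to act on the Rag locus, 14 were tested, and Gfi1b, at 0.0379 to 0.140 mean RPKM, was under the filter. None of the 14 was called from T1 to T2 (list median -0.15, beside 0.08 for all genes), where 5.43% of all tested genes were, and none from T2 to FO, where 1.14% were. Gfi1, a repressor, was the furthest from 0 in both, at -0.95 (SE 0.44, adjusted p = 0.137, limma) and -1.24 (SE 0.44, adjusted p = 0.0875, limma). It alone was called from T2 to MZ, where 10.8% of all genes were, lower by 1.90 (SE 0.44, adjusted p = 0.00504, limma), from 5.26 ± 2.41 to 0.979 ± 0.327 RPKM (SD, n = 4). Foxo1, an activator of Rag transcription, was at 70.01 ± 12.8 RPKM in T1 and 59.1 ± 8.05 in T2, a change of -0.24 (SE 0.12, adjusted p = 0.195, limma). Ikzf1 (Ikaros) changed by -0.09, Ikzf3 (Aiolos) by -0.20 and Irf4 by -0.09 from T1 to T2, and none passed. Tcf3 (E2A) was at 109.9 ± 13.5 RPKM in T1 and 68.8 ± 2.00 in T2 (SD, n = 4), a change of -0.67 (SE 0.10, adjusted p = 8.49e-04, limma). Ets1 changed by 0.27 (SE 0.09, adjusted p = 0.0437, limma). Both changes were under the fold threshold. From T2 to MZ, Foxo1 changed by -0.73 (SE 0.12, adjusted p = 8.12e-04, limma), Ikzf3 by -0.63 and Ikzf1 by 0.44, all under the fold threshold, while Irf4 varied between 55.2 and 208.2 RPKM among the T1 libraries alone.

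Of 12 pro-B and pre-B cell genes, only 5 passed the filter. From T1 to T2, 2 of them were called lower, beside 3.16% of all genes. From T2 to MZ, 3 were called lower, beside 4.25%, and 1 higher, beside 6.58%. From T2 to FO, 1 was called lower, beside 0.736%. Vpreb2, the near copy of Vpreb1, was listed at 0 in all 16 libraries. Myb, a transcription factor of progenitors, was called lower at each step. It was at 36.1 ± 2.11 RPKM in T1, 8.88 ± 1.66 in T2, 3.30 ± 0.991 in FO and 3.06 ± 0.449 in MZ (SD, n = 4). Its changes were -1.98 from T1 to T2 (SE 0.17, adjusted p = 3.48e-05, limma), -1.39 from T2 to MZ (SE 0.17, adjusted p = 9.22e-05, limma) and -1.33 from T2 to FO (SE 0.17, adjusted p = 0.00661, limma). Bst1, a surface ADP-ribosyl cyclase, was also called lower from T1 to T2 (-2.08) but higher from T2 to MZ (2.12, SE 0.22 each). Lef1 and Spn (CD43) were called lower from T2 to MZ only (-1.59 and -1.45), and Il7r, the interleukin-7 receptor chain, was called in neither, at -0.09 and -0.91. The list medians, each over 5 genes, were -0.37 for the step to T2, -1.39 for T2 to MZ and -0.53 for T2 to FO. Beside them, the medians of all tested genes were 0.08, 0.02 and 0.0003.

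**Figure D4:**
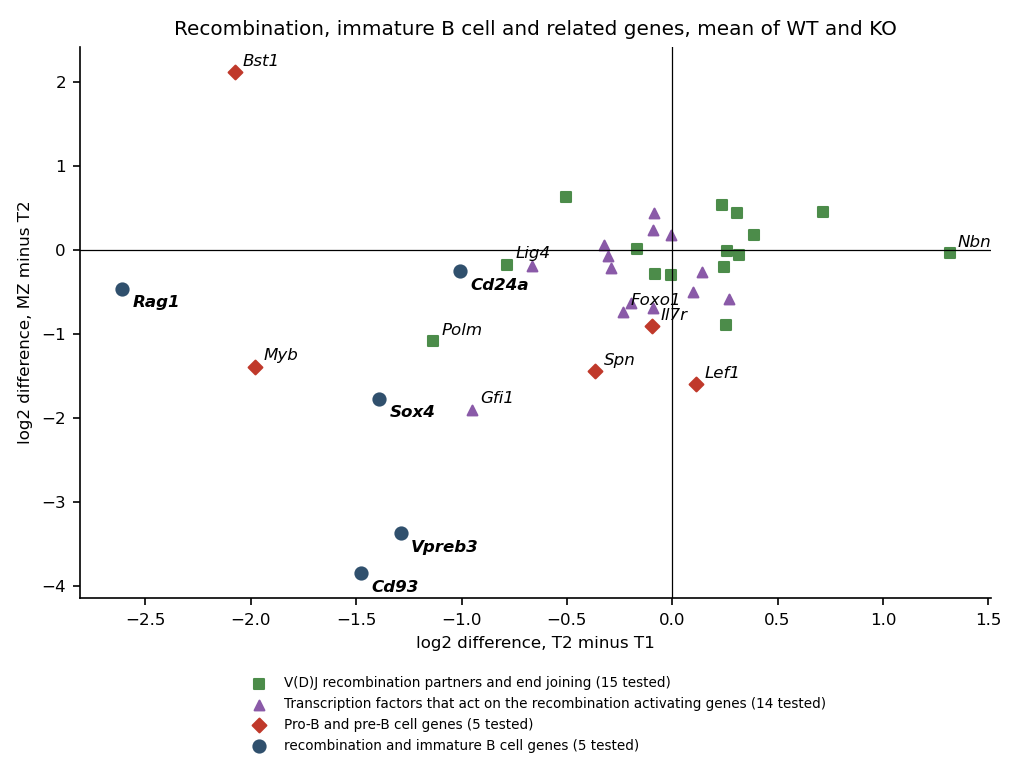
Log2 change from T1 to T2 (horizontal) against that from T2 to MZ (vertical), each the mean of WT and KO, for the 5 tested members (circles), recombination partners (squares), transcription factors of the Rag locus (triangles) and pro-B and pre-B cell genes (diamonds). The 5 members lie to the left of 0, as do 11 of 14 factors, 6 of 15 partners and 4 of 5 pro-B and pre-B cell genes. Of these, Bst1 lies at -2.08 but above 0 on the vertical axis, at 2.12. Most partners and factors lie within 1 of 0 on both axes, and both axes share the T2 libraries.

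Mature B cell markers, among them genes of the antigens used in the sort, were called in both directions. From T1 to T2, the sort markers Fcer2a (CD23, 4.03) and Cr2 (CD21, 2.61) were called higher. From T2 to MZ, Fcer2a (-5.63), Cd55 (-2.40) and Klf2 (-2.09) were called lower and Cr2 (2.40) higher. None of these was called from T2 to FO, nor was Cxcr5 (0.40). The B cell markers Ms4a1 and Blnk were called in none of the 3 comparisons, with Ms4a1 at -0.69 from T1 to T2 and Blnk at 0.83 from T2 to MZ. The 5 plasma cell markers were all called lower from T1 to T2 (3.16% of all genes), with Igj at -5.63, Tnfrsf17 at -3.24, Prdm1 at -2.23 and Sdc1 at -2.05. Tnfrsf17 had entered the test through T1, so its call is a description. Of the 5 markers, 1 was called lower (4.25% of all genes) and 1 higher (6.58%) from T2 to MZ, and 1 lower from T2 to FO (0.736%). The part of plasma cell RNA in the members' values was not tested, since the T1 libraries kept when replicate 2 was left out still held it. Of 11 tested myeloid markers, 3 were called higher from T1 to T2 (2.27% of all genes), 4 lower from T2 to MZ (4.25%) and 7 lower from T2 to FO (0.736%). No T cell marker of 8 was called in the 3 comparisons. Of 3 tested erythroid markers 1 was called, lower from T2 to MZ (4.25%). Of 2 tested endothelial markers Thbd was called lower from T1 to T2 (3.16%) and from T2 to MZ (4.25%).

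The genes with profiles most like each member were found as those with the smallest root-mean-square difference in log2(RPKM + 0.5) over the 16 libraries, after each gene was centred on its own mean. For Rag1 they were Agbl1, Map2 and Gas7, at 0.27, 0.29 and 0.32. Gas7 went from 7.12 mean RPKM in T1 to 0.317 in T2. For Vpreb3 they were Csrp2, Akap12 and Eps8, at 0.24, 0.46 and 0.49, and Csrp2 ran from 23.8 in T1 and 8.73 in T2 to 5.93 in FO and 0.47 in MZ. For Sox4 they were Ehd4, Sorcs2 and Igsf9, at 0.27, 0.28 and 0.32. For Cd93 they were Serinc5, Atp1b1 and Akap12, at 0.42, 0.48 and 0.50, and for Cd24a Zeb2, Vcl and Rabl5, at 0.15, 0.16 and 0.17. Akap12 was shared by Vpreb3 and Cd93, whose profiles both fell in the order T1, T2, FO, MZ. All these values come from the same libraries and share their depth and composition.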

How the data were processed

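Libraries were made by the authors with the TruSeq RNA kit V2 and sequenced as single-end reads. Per the labels and the study's methods, the authors aligned reads to mm10 (GRCm38) with TopHat, kept uniquely aligned reads and deposited RPKM per gene, with replicates kept apart. No version of TopHat is given in the sources used. Reads recovered from the steps of RPKM were whole, within 0.01, for each of 23194 genes above 0, and were used for read ratios and limma-voom.

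In R 4.3.3, limma 3.58.1 was run on log2(RPKM + 0.5) in 1 model of the 8 groups over all 16 libraries, with a variance trend and Benjamini-Hochberg adjustment over 12507 genes. Genes under the filter were compared by two-sided exact permutation tests (scipy 1.17.1, Python 3.11.15). Read ratios have exact 95% intervals and a floor of 3 reads. The limma script was tested on simulated data. The 8 members and the 10 gene lists were chosen with earlier results of these data known. Named genes were all members, up to 4 called genes of largest change per list and comparison (the largest where none was called), a few always-named genes, and 3 genes of closest profile per member. Tcf3 and Ets1 were named in addition, for their adjusted p from T1 to T2. Marker lists are named in part, and some of their genes are not reported here. Alternatives were a pseudocount of 0.1 or 1, no filter, median-ratio scaling, quantile normalization, a replicate block, only the libraries compared, limma-voom, and leaving out each library. Leaving out both T1 replicate 2 libraries, and a replicate block within each genotype, were chosen after seeing the data. Depth ranged from 9003343 to 26386684 reads.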

Additional observations from a re-analysis of the deposited data

How the results depend on the processing

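Over both genotypes, the number of members called stayed at 3 from T2 to MZ and at 1 (Cd93) from T2 to FO in every alternative run. It was 4 or 5 from T1 to T2 and 2 or 3 from FO to MZ. The counts from T2 to MZ and from T2 to FO include Cd93, across its own gate. Those from T1 to T2 include Rag1, which had entered the test through T1. No called change of a member reversed in 2326 refits, 47 calls were lost (41 of them within WT or KO alone) and 11 were gained. When the fit held only the compared groups' libraries, 0 members were called from T1 to T2 in WT or in KO and from T2 to FO in WT. Fewer samples then estimate the spread, and the cause of these losses was not tested. From T1 to T2 in WT, 3 were called with no filter and 3 with quantile normalization, and the cause was not tested. With both T1 replicate 2 libraries left out, 5 were called in KO and 4 in WT. Leaving out each library gave 1 to 5 in WT and 1 to 4 in KO for T1 to T2, and 0 to 1 in each genotype for T2 to FO. The Rag2 difference from T1 to T2 ran from -0.25 to -0.15 RPKM, always at p = 0.0571, the smallest that the exact permutation test of 4 against 3 allows. Over all genes, calls from T2 to FO ran from 15 to 192 when a library was left out, beside 143 with all, and from 83 (no filter) to 213 (limma-voom) under the other settings. Replicate numbers carry no stated pairing. Deviations of same-numbered replicates correlated at 0.0756 to 0.45 over 6 pairs of WT groups, at 0.19 to 0.44 over 6 pairs of KO groups and at -0.36 to 0.30 over 16 pairs of WT with KO. With the replicate block, the members called stayed at 5, 3, 1 and 3 in the 4 comparisons over both genotypes, and no member's call changed. With a separate replicate block within each genotype, chosen after seeing the data, Sox4 from T1 to T2 in KO was gained and no other member's call changed, while calls over all genes went from 23 to 69 for T2 to FO in WT and from 9 to 24 for KO against WT over all subsets. Depth limits Rag2, Vpreb1 and Igll1, with 38, 29 and 3 reads in all.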
